A study of Mus musculus with 3 samples.

Results

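The transcripts described here encode the adaptors, kinases and ligases that carry a signal inward from Toll-like receptors (TLRs). They are 10 of the 32285 genes counted in the series, and they were taken by symbol: *Myd88*, *Tirap*, *Irak4*, *Irak1*, *Irak2*, *Traf6* and *Irak3* as the 7 genes of the MyD88 arm, and *Ticam1*, *Ticam2* and *Traf3* as the 3 genes of the TRIF arm. The rule that picks them uses their names and no measured value, and the list was drawn up with earlier results of these data known.

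Bone marrow derived macrophages (BMDMs) of female C3H/HeN mice aged 6-8 weeks were left without lipoprotein (UI, given PBS and collected at 4 hours) or were exposed to 1 µg/mL of lipoproteins purified from the Lyme disease spirochete *Borrelia burgdorferi* until collection at 1 hour (LP1) or at 4 hours (LP4). Each condition was 1 single-cell RNA library, captured after the cells of 3 wells had been pooled, so no spread between mice or cultures could be measured and no test between conditions was possible. Every interval given is a 95% interval for counting error only. UI had no counterpart collected at 1 hour, so the time in culture and the lipoprotein cannot be told apart in LP1.

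Lipoproteins of this spirochete are sensed mainly by TLR2, which pairs with TLR1 or TLR6. The receptor binds the bridging adaptor TIRAP (also called MAL), which brings in MyD88. MyD88 nucleates a complex in which IRAK4 activates IRAK1 and IRAK2, and these engage the ubiquitin ligase TRAF6, which leads to NF-κB and MAP kinase activation. IRAK3 (IRAK-M) lacks kinase activity and is best known as a brake on this complex in macrophages. In the other arm TRIF, encoded by *Ticam1*, works below TLR3 and, with the bridging adaptor TRAM encoded by *Ticam2*, below TLR4 in endosomes. TRAF3 links TRIF to the kinases that activate IRF3 and interferon genes, and it also acts on the MyD88 side.

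The members split by direction after 4 hours, and the promoters of 4 of them are shown because they stand for that split. As a share of all UMIs *Myd88* and *Tirap* rose and *Irak2*, the member with the most UMIs, fell. *Traf3* is the third member whose promoter held a match to an NF-κB motif. The sequences come from RefSeq on build GRCm38.p6, run 5′ to 3′ on the strand of the gene from 250 bases before to 50 bases after the annotated start, and 9 of the 10 members had an entry. *Ticam2* had none. Capitals mark matches, on either strand, to GGANNTTCC or GGANNTCCC (NF-κB), GAAANNGAA (the interferon-stimulated response element, ISRE) or TGAGTCA (AP-1).

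Myd88, chr9:119339969-119340268, minus strand: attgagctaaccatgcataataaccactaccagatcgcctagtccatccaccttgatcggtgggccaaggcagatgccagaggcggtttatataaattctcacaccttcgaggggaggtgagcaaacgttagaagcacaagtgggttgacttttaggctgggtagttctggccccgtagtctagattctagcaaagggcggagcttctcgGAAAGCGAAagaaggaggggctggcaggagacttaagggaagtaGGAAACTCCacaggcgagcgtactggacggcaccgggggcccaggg

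Tirap, chr9:35199916-35200215, minus strand: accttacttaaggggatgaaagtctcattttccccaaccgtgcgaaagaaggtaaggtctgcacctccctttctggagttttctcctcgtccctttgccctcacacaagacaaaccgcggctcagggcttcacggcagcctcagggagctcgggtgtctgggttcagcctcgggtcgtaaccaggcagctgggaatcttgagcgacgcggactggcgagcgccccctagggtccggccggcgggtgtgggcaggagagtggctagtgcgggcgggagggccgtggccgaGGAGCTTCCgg

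Irak2, chr6:113638217-113638516, plus strand: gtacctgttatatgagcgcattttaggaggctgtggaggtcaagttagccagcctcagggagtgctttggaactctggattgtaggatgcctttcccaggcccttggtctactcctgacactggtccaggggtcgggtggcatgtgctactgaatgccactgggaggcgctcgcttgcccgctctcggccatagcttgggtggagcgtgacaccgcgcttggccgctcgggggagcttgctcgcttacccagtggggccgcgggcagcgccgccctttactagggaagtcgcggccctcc

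Traf3, chr12:111166120-111166419, plus strand: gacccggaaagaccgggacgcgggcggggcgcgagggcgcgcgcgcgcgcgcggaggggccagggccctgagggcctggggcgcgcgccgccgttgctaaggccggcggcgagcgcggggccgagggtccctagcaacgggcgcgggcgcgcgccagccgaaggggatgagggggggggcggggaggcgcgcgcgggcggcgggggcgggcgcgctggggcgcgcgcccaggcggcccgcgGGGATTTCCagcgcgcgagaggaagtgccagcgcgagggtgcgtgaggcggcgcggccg

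In the *Myd88* window the NF-κB match GGAAACTCC began 5 bases into the transcript and read on the opposite strand, and the ISRE match GAAAGCGAA began 40 bases before the start. Both positions are counted from the RefSeq start. The window lies wholly inside the GENCODE vM21 span of *Myd88* (chr9:119335934-119341411), which starts farther upstream. This window also lies inside the interval of the oppositely oriented gene *Acaa1a*. In the *Tirap* window GGAGCTTCC began at base 40 of the transcript, and the same site fell before the start of the second annotated *Tirap* promoter. The *Traf3* window held GGGATTTCC on the opposite strand, and the *Irak2* window held no match. An NF-κB match of either form was found for 3 of the 9 members. Counted by promoter it was in 4 of 12, with the same *Tirap* site in 2 of the 4, beside 8.35% of all 32851 promoters in the table. An ISRE match was found for 2 of 9, *Myd88* and an alternative promoter of *Irak3*. That was 2 of 12 promoters, beside 8.56% of all promoters. An AP-1 match was in 0 of 12 promoters, beside 5.20%. A match is a string of letters and was not tested for binding, and for 5 members these letters were not in the windows searched. *Traf3* held a match and did not rise, so the letters and the direction did not run together in all 3 genes.

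Of 16281 barcodes, 15806 passed the limits on UMIs, genes and mitochondrial share. The limits kept 99.2% of UI, 98.9% of LP1 and 92.7% of LP4 barcodes, so LP4 lost the largest share. Kept cells numbered 4670 to 6071 a library, and the total rose from 35688939 UMIs in UI to 52475723 in LP1 and 61402275 in LP4, with a median of 5133, 9343 and 11784 UMIs per cell. The median mitochondrial share also differed, at 1.97%, 2.84% and 3.17%. Cells of macrophage-like clusters made up 89.9% to 92.6% of each library. All 10 macrophage markers were at 5 CPM (UMIs per 1000000 UMIs of the library) or more in all 3 libraries, and their summed level was 12151 to 12654 CPM. Neutrophil markers summed to 393, 294 and 566 CPM in UI, LP1 and LP4, dendritic cell markers to 151 to 154, cell cycle markers to 667 to 739, and stromal markers to 4.29, 5.85 and 19.7. *Cd74* alone made up 118, 107 and 110.2 CPM of the dendritic cell marker sum in UI, LP1 and LP4. Lymphoid, erythroid and mast cell markers each summed to under 1 CPM, with *Cd3e*, *Hbb-bs* and *Fcer1a* at 0. Between pairs of libraries 4 to 10 barcodes were shared.

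**Figure D1:**
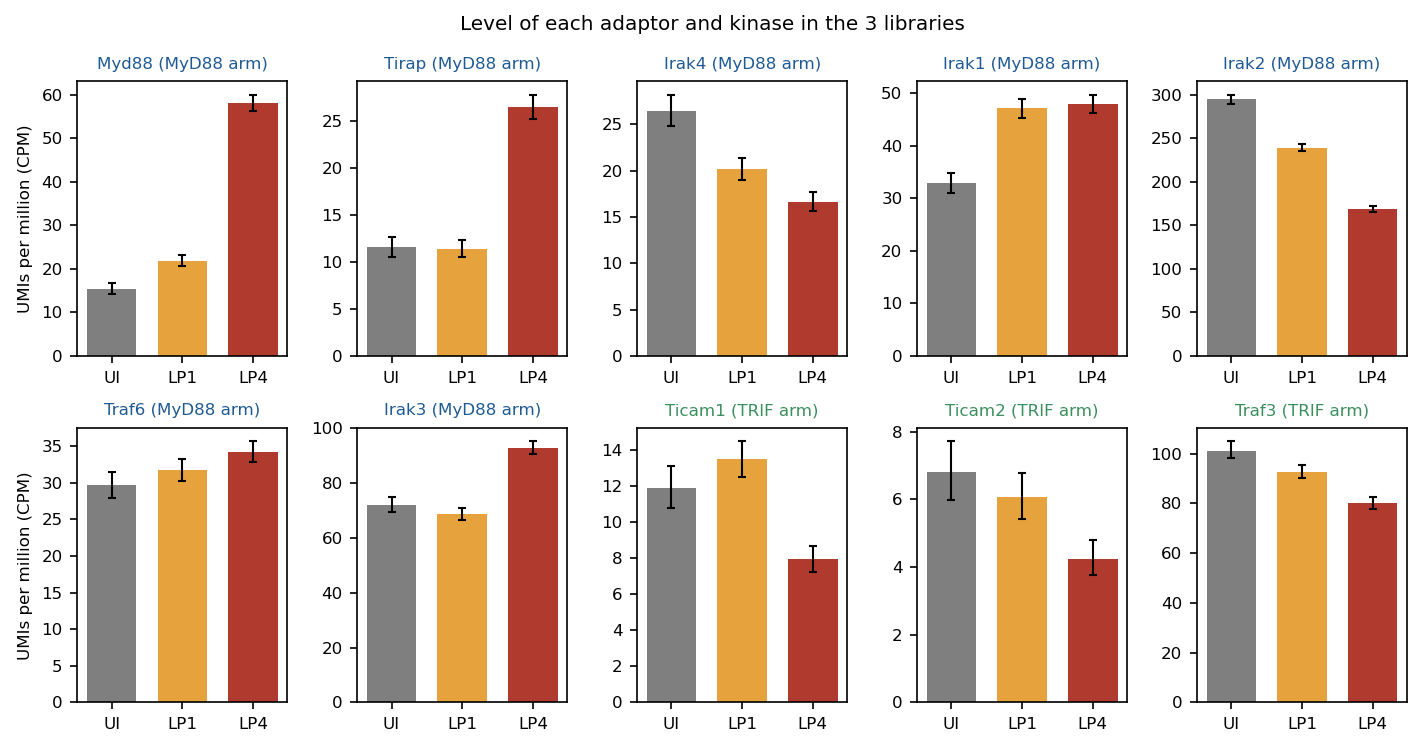
Level of each of the 10 genes in the UI, LP1 and LP4 libraries, in CPM on the vertical axis, with bars for the single library of each condition and whiskers for 95% Poisson counting intervals. *Myd88* and *Tirap* were highest in LP4, at 58.0 and 26.5 CPM, while *Irak2* was lowest there, at 169 CPM.

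At the receptor-proximal end, both adaptors of the MyD88 arm rose after 4 hours and only one of them differed from UI by more than counting error after 1 hour. *Myd88* (chr9:119335934-119341411, GENCODE vM21 on mm10) was at 15.4 CPM in UI (95% interval 14.1 to 16.7), 21.9 in LP1 (20.7 to 23.2) and 58.0 in LP4 (56.2 to 60.0). The 3 intervals did not overlap, and the order was UI, LP1, LP4. The log2 ratio was 0.51 (0.36 to 0.66) for LP1 over UI, 1.92 (1.79 to 2.05) for LP4 over UI and 1.41 for LP4 over LP1. At 4 hours this was a 3.77-fold increase, above the ratio of 96.2% of the genes compared. Reads of *Myd88* lie within the span of *Slc22a14* on the same strand, a gene with only 170 UMIs in all.

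*Tirap* (chr9:35184551-35200291) encodes the adaptor that tethers MyD88 to the receptor at the membrane. It was at 11.6 CPM in UI (10.5 to 12.7), 11.4 in LP1 (10.5 to 12.3) and 26.5 in LP4 (25.2 to 27.8). UI and LP1 overlapped almost entirely, and LP4 stood above both. The log2 ratio was -0.03 (-0.21 to 0.16) for LP1 over UI and 1.20 (1.04 to 1.36) for LP4 over UI, or 2.29-fold. The pair of adaptors thus differed in timing by their own values: *Myd88* was already higher at 1 hour by more than counting error and *Tirap* was not.

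The kinases of the MyD88 complex did not move together. *Irak4* (chr15:94543643-94581815), the kinase that starts the cascade, was at 26.4 CPM in UI (24.8 to 28.2), 20.2 in LP1 (19.0 to 21.4) and 16.6 in LP4 (15.6 to 17.7). Its CPM was lower at each time with no overlap of intervals, and LP4 over UI was -0.67 (-0.80 to -0.54), past 1.5-fold. The UMIs of *Irak4* numbered 943 in UI and 1020 in LP4, so the fall was in its share of the library. *Irak1* (chrX:74013914-74023918), which IRAK4 phosphorylates, was at 32.8 CPM in UI (31.0 to 34.7), 47.1 in LP1 (45.2 to 48.9) and 47.9 in LP4 (46.2 to 49.7). Both lipoprotein libraries stood above UI and overlapped each other, with log2 ratios of 0.52 (0.42 to 0.62), 0.55 (0.45 to 0.65) and, for LP4 over LP1, 0.03 (-0.05 to 0.10). *Irak1* therefore stayed just inside 1.5-fold, at 1.43 and 1.46, and it was the one member whose LP1 and LP4 levels differed by no more than counting error.

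*Irak2* (chr6:113638467-113695026), the kinase linked to the sustained part of the response, had 10514, 12533 and 10354 UMIs in UI, LP1 and LP4, which came to 295 CPM (289 to 300.3), 239 (235 to 243) and 169 (165 to 172). The intervals were far apart and the level was lowest in LP4. The log2 ratio was -0.30 (-0.34 to -0.27) at 1 hour, -0.80 (-0.84 to -0.77) at 4 hours and -0.50 (-0.54 to -0.46) between the times. The CPM of *Irak2* thus fell to 0.572 of its UI value. The number of *Irak2* UMIs itself was similar in UI and LP4, while the LP4 library held more UMIs in all. Those *Irak2* UMIs came from 6071 kept cells in UI and from fewer, 4670, in LP4, so the count per kept cell did not fall with the CPM. A CPM is a share of the library, and whether the amount of *Irak2* RNA per cell changed was not tested.

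The ligase and the brake moved less. *Traf6* (chr2:101678429-101701669), the ubiquitin ligase on which the arm converges, was at 29.7, 31.7 and 34.2 CPM in UI, LP1 and LP4, and its log2 ratio was 0.09 (-0.02 to 0.21) at 1 hour and 0.20 (0.10 to 0.31) at 4 hours. *Irak3* (chr10:120141648-120202130) was at 72.2 CPM in UI (69.4 to 75.1), 68.7 in LP1 (66.5 to 71.0) and 92.9 in LP4 (90.5 to 95.4). LP4 stood above the other two libraries, which overlapped, and the log2 ratio was -0.07 (-0.14 to 0.00) at 1 hour and 0.36 (0.30 to 0.43) at 4 hours, or 1.29-fold. Neither gene passed 1.5-fold in any pair of libraries.

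All 3 members of the TRIF arm were lower in LP4 than in UI by CPM, which is a share of the library. Their UMIs were not fewer, at 424 in UI and 488 in LP4 for *Ticam1* and 3618 and 4919 for *Traf3*. Kept cells numbered 6071 in UI and 4670 in LP4, so the count per kept cell did not fall with the CPM. Whether the amount of RNA per cell changed was not tested. *Ticam1* (chr17:56269319-56276786), which encodes TRIF, was at 11.9 CPM in UI (10.8 to 13.1), 13.5 in LP1 (12.5 to 14.5) and 7.95 in LP4 (7.26 to 8.69). UI and LP1 overlapped and LP4 lay below both. The log2 ratio was 0.18 (0.00 to 0.36) at 1 hour and -0.58 (-0.77 to -0.39) at 4 hours, just inside 1.5-fold (past it without the barcodes that libraries share), and -0.76 (-0.93 to -0.59) for LP4 over LP1, which was past it. *Traf3* (chr12:111166370-111267153) was at 101 CPM in UI (98.1 to 105), 92.6 in LP1 (90.0 to 95.3) and 80.1 in LP4 (77.9 to 82.4), with log2 ratios of -0.13 (-0.19 to -0.07) and -0.34 (-0.40 to -0.28).

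*Ticam2*, which encodes the TRAM adaptor, was the member with the fewest UMIs, with 243, 319 and 261 in the 3 libraries. Its level was 6.81 CPM in UI (5.98 to 7.72), 6.08 in LP1 (5.43 to 6.78) and 4.25 in LP4 (3.75 to 4.80), and the log2 ratio was -0.16 (-0.41 to 0.08) at 1 hour and -0.68 (-0.94 to -0.42) at 4 hours. The LP4 interval lay below the other two. This value is uncertain, since *Ticam2* overlaps *Tmed7* on the same strand and reads of the shared stretch could have been split or dropped in counting. *Tmed7* moved the opposite way, from 20.3 CPM in UI to 28.5 in LP1 and 55.2 in LP4, and its part in the *Ticam2* value was not tested.

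**Figure D2:**
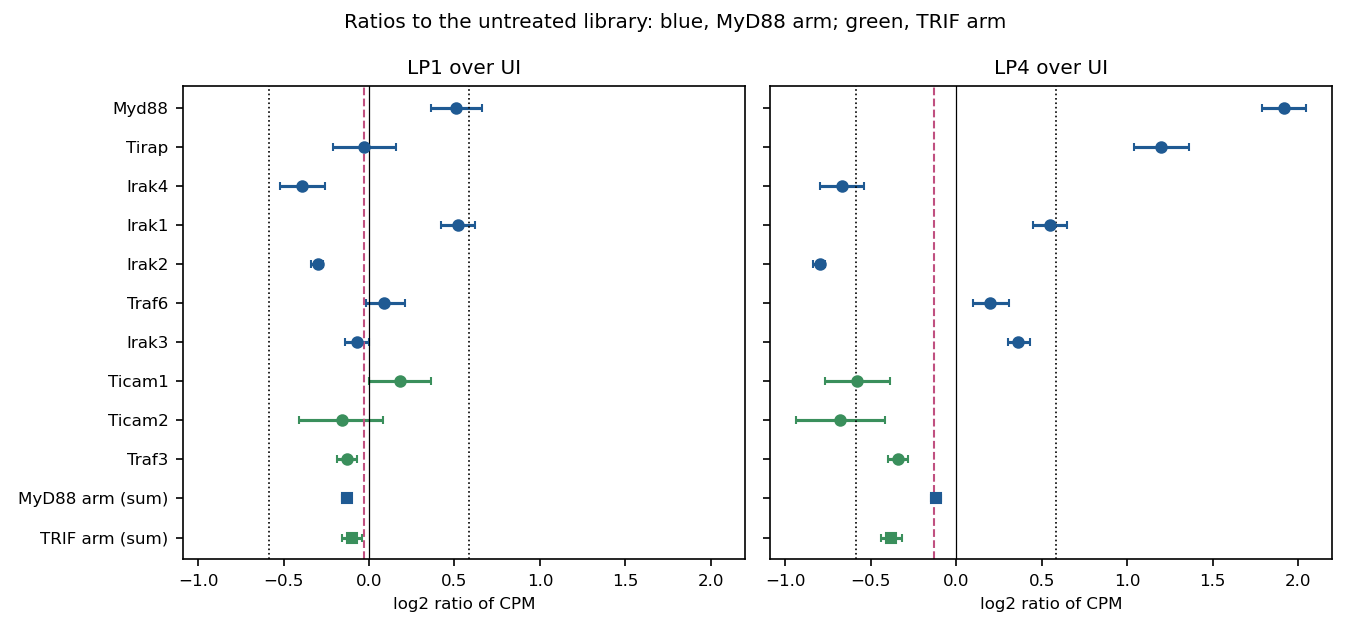
Log2 ratio of CPM to the UI library on the horizontal axis, for LP1 (left) and LP4 (right), with a point per gene, squares for the summed UMIs of each arm and whiskers for 95% counting intervals. Dotted lines mark 1.5-fold and the dashed line the median of all genes compared; at 4 hours *Myd88* and *Tirap* lie right of 1.5-fold and *Irak2*, *Irak4* and *Ticam2* left of it.

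Against all genes with at least 50 UMIs in a pair of libraries, the members were not set apart by how many of them changed. At 4 hours 2 of 10 members were higher than in UI by at least 1.5-fold, against 20.3% of 12714 genes, and 3 of 10 were lower, against 27.7%. At 1 hour 0 of 10 passed in either direction, against 4.96% higher and 6.34% lower of 12526 genes. Between the times 2 of 10 members were higher in LP4, *Myd88* and *Tirap*, against 17.5% of 12878 genes, and 1, *Ticam1*, was lower, against 23.2%. Depth, mitochondrial share and the neutrophil and stromal marker sums differed between the libraries along with these ratios, and their part was not tested. In macrophage-like cells alone the LP4 over UI ratio was 1.92 (1.78 to 2.06) for *Myd88*, 1.19 (1.03 to 1.36) for *Tirap* and -0.80 (-0.84 to -0.76) for *Irak2*. The median log2 ratio of the 10 members was -0.05, -0.07 and -0.09 in these comparisons of LP1 with UI, LP4 with UI and LP4 with LP1, beside -0.03, -0.13 and -0.10 for all genes. Both ratios to UI share the UI library, and all ratios between 2 libraries rest on 1 library each.

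How the libraries are scaled moved every ratio alike. Scaling by TMM added 0.17 to each LP4 over UI log2 ratio and 0.07 to each LP1 over UI ratio, and median-of-ratios scaling added 0.21 and 0.08. Of all genes past 1.5-fold at 4 hours, 42.3% were higher by CPM, 55.4% with TMM and 58.2% with median of ratios. At 1 hour the same shares were 43.9%, 56.7% and 57.5%, and between LP1 and LP4 they were 42.9%, 51.0% and 53.8%. *Myd88* and *Tirap* stayed past 1.5-fold at 4 hours under both scalings, and *Irak2* stayed past it in the other direction, at -0.64 and -0.60. *Irak4* (-0.50 and -0.46) and *Ticam2* no longer passed, and *Irak1* (0.72 and 0.75) then did. No member's LP4 over UI ratio changed sign under either scaling.

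Summed by arm, the CPM of the MyD88 arm was close to level and that of the TRIF arm was lower at 4 hours, which is the question the split into arms was set up to answer. The 7 genes of the MyD88 arm summed to 483 CPM in UI, 439.7 in LP1 and 445 in LP4. The log2 ratio was -0.13 (-0.16 to -0.11) at 1 hour and -0.12 (-0.15 to -0.09) at 4 hours. The second value turned to 0.05 with TMM and 0.09 with median of ratios, so its direction depended on the scaling. The 3 genes of the TRIF arm summed to 120.1, 112 and 92.3 CPM, with log2 ratios of -0.10 (-0.16 to -0.04) and -0.38 (-0.44 to -0.32). Their UMIs numbered 4285 in UI and 5668 in LP4, so this was a lower share of the library and not a lower count.

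The difference between the arms does not depend on the scaling. The MyD88 arm ratio minus the TRIF arm ratio was -0.04 (-0.10 to 0.03) at 1 hour, within counting error of 0, and 0.26 (0.20 to 0.33) at 4 hours. The value at 1 hour turned with the genes summed, to 0.19 without *Irak2*, -0.20 without *Traf3* and 0.10 by medians. For LP4 over LP1 the difference between arms was 0.30 (0.24 to 0.36). *Irak2* weighed heavily on the sum of its arm: without it the MyD88 arm ratio at 4 hours was 0.55 and the difference between arms 0.93. *Traf3* did so in the TRIF arm, where the remaining pair gave -0.62 and a difference of 0.50. By the median member instead of the sum, the MyD88 arm was at 0.36 and the TRIF arm at -0.58 at 4 hours. In the MyD88 arm 5 of 7 genes had a ratio above 0, and in the TRIF arm 0 of 3. The median ratio of all genes compared at 4 hours was -0.13, and the share of all genes above 0 was not counted. The direction of the difference at 4 hours was the same in each of these versions, and its size ranged widely.

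**Figure D3:**
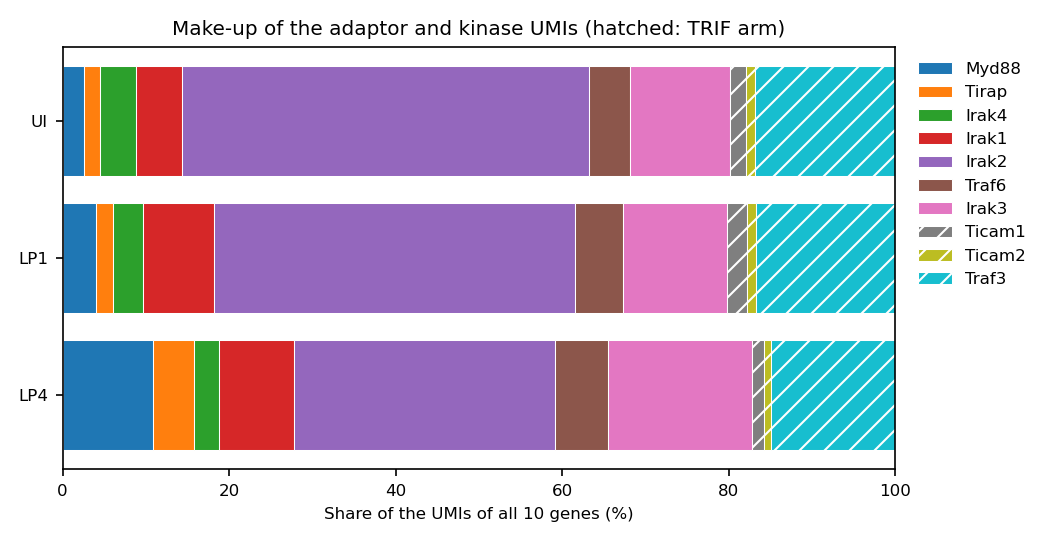
Share of the UMIs of all 10 genes that each gene held in the UI, LP1 and LP4 libraries, in percent along the horizontal axis, with hatching for the TRIF arm. *Irak2* shrank from 48.9% to 31.4% and *Myd88* grew from 2.55% to 10.8% between UI and LP4.

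Within the UMIs of these 10 genes, which no scaling can move, *Irak2* took a smaller share in LP4 than in UI, and *Myd88* and *Tirap* a larger one. *Irak2* held 48.9% of the 21511 UMIs in UI, 43.3% of 28960 in LP1 and 31.4% of 32983 in LP4. *Myd88* held 2.55%, 3.97% and 10.8%, and *Tirap* 1.92%, 2.06% and 4.94%. *Irak1* went from 5.44% to 8.53% and 8.92%, and *Irak3* from 12.5% in LP1 to 17.3% in LP4. The TRIF adaptors took a smaller share in LP4 than in UI, with *Ticam1* at 1.97% and 1.48% and *Ticam2* at 1.13% and 0.791%. The whole MyD88 arm held 80.1% (79.5 to 80.6), 79.7% (79.2 to 80.1) and 82.8% (82.4 to 83.2). How completely the 3′ end of each gene is captured was not measured, so these shares are compared across libraries within a gene and not between genes.

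The share of cells with a UMI gave the same order as the CPM for the members that moved most. Thinning every cell to 2000 UMIs kept 5949 UI, 5052 LP1 and 4625 LP4 cells. *Myd88* was then seen in 3.16% of UI cells (2.73 to 3.64), 4.69% of LP1 cells (4.12 to 5.31) and 11.8% of LP4 cells (10.9 to 12.8). At full depth the shares were 8.66%, 20.0% and 50.6%. *Tirap* was in 2.15%, 1.90% and 5.23% of thinned cells, and *Irak2* in 42.9%, 37.8% and 29.3%. *Irak2* at full depth was in 73.3%, 83.9% and 76.4% of cells, an order that follows neither the depth of the libraries nor the CPM. *Traf3* was in 17.7%, 16.5% and 13.9% of thinned cells, and *Irak3* in 13.3%, 12.2% and 17.1%.

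Free RNA can put a UMI into a cell that does not make the transcript. The neutrophil gene *S100a9* was seen in 0.312%, 0.0660% and 0.467% of thinned macrophage-like cells of UI, LP1 and LP4, with 5077, 9062 and 11567 UMIs as the median depth before thinning, against 90.5% of UI neutrophil-like cells at 3947 UMIs, and all 20 LP1 and all 28 LP4 ones at 6219 and 9261. *Ticam2*, the least seen member, was in 1.38%, 1.19% and 1.05% of macrophage-like cells, above *S100a9* in each library. *S100a8*, a second neutrophil gene, was in 4.01%, 2.84% and 4.07% of macrophage-like cells, which is above *Ticam2* in each library and above *Ticam1* in UI and LP4 (2.57% and 1.80%). In the MyD88 arm, *Tirap* in UI and LP1 (2.13% and 1.85%), *Myd88* in UI (3.18%) and *Irak4* in LP4 (3.39%) also lay below *S100a8*. Over the whole library *S100a8* was at 179, 98.3 and 197 CPM in UI, LP1 and LP4 and *S100a9* at 139, 128 and 264. *S100a9* thus had the higher level in LP1 and LP4 and the lower share of macrophage-like cells in each library. Whether macrophage-like cells make *S100a8* was not tested, so a share below that of *S100a8* does not place a member at background. The part of free RNA in any of these shares was not tested.

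Few cells showed both arms at this depth. A UMI of any MyD88 arm gene was in 60.5%, 57.8% and 59.2% of thinned cells in UI, LP1 and LP4, and one of any TRIF arm gene in 20.7%, 19.9% and 16.2%. Both were seen in 13.0%, 11.6% and 9.49% of cells and neither in 31.7%, 33.9% and 34.1%. A share with both is low whenever each arm is seen sparsely. These values therefore do not show whether the arms part between cells, which was not tested. The median cell held UMIs of 1 of the 10 genes in each library. The variance of thinned UMIs over their mean was 0.955 to 1.18 for the 10 genes. The means ran from 0.0106 to 0.603 UMIs per cell. Near the lowest means this ratio lies close to 1 almost whatever the cells do, so there it says little of differences between cells. At the highest mean, that of *Irak2* in UI, large differences between cells would raise it, and it was 1.15. How far the cells differ was not tested.

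Cells were then grouped into 10 clusters on genes that differed by less than 1.5-fold between libraries, with the 10 members left out of the clustering, and 8 clusters (A to H) had 50 or more cells in each library. Clusters A to F were macrophage-like by their marker genes, G was led by cell cycle genes, and H by antigen-presentation genes (dendritic cell-like). Of the 10 dendritic cell markers only 4, *Cd74*, *H2-Aa*, *H2-Ab1* and *H2-Eb1*, were at 5 CPM or more in all 3 libraries. The name of H rests on these 4 genes. In H 8 of the 10 macrophage markers were detected in 50% or more of the cells, as in A and B. Clusters B and F differed in size between libraries: B held 1445 UI, 1071 LP1 and 52 LP4 cells, and F held 359, 263 and 1346. B was led by *Egr3*, *Slc9a9* and *Cd86* and F by *Gm15987*, *F13a1* and *Ms4a4a*.

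**Figure D4:**
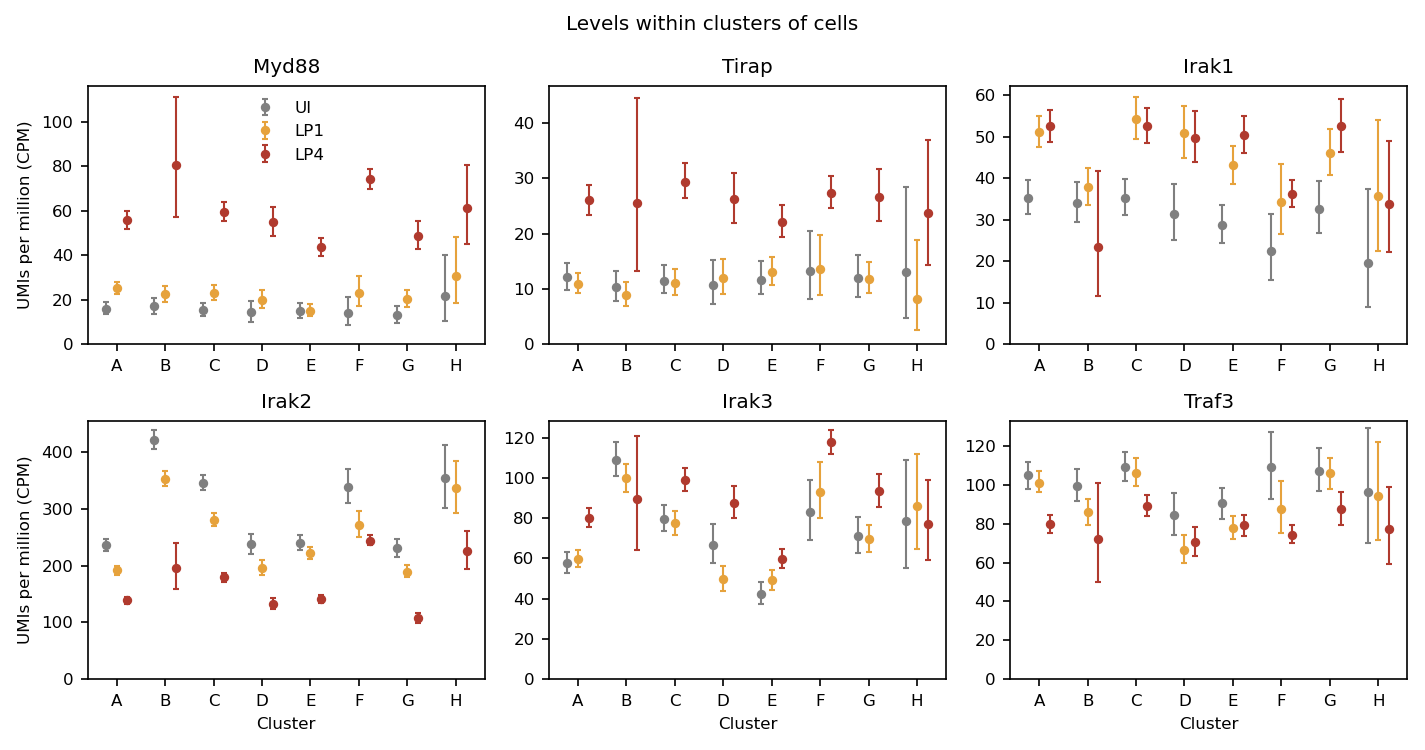
Level of 6 members within the 8 clusters (horizontal axis, A to H) in UI, LP1 and LP4, in CPM, with points for the summed UMIs of a cluster in 1 library and whiskers for 95% counting intervals. *Myd88* in LP4 lies above UI in 8 of 8 clusters and *Irak2* below it in 8 of 8.

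The directions at 4 hours were shared across clusters for the members that moved most. *Myd88* was higher in LP4 than in UI in 8 of 8 clusters with every interval above 0, from a log2 ratio of 1.48 (0.48 to 2.63) in H to 2.42 (1.80 to 3.11) in F. In UI its level ran only from 13.0 CPM in G to 21.8 in H, with overlapping intervals. In LP4 cluster F, at 74.3 CPM (69.7 to 79.0), stood above E, the lowest, at 43.6 (39.7 to 47.8). The highest value in LP4 was that of B, at 80.8 (57.2 to 111). It rested on 38 UMIs, and its interval overlapped that of F. *Tirap* was higher in LP4 in 8 of 8 clusters, with 7 intervals above 0, from 0.85 (-0.53 to 2.47) in H to 1.35 (1.00 to 1.71) in C.

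*Irak2* was lower in 8 of 8 clusters with every interval below 0, from -1.11 (-1.42 to -0.81) in B to -0.47 (-0.61 to -0.34) in F. Its level also differed among clusters within a library: in UI it was 421 CPM in B (405 to 438) and 231 in G (215 to 247), and in LP4 it was 244 in F (236 to 253) and 108 in G (98.7 to 117). The macrophage-like cluster richest in *Irak2* was thus B in UI and F in LP4. B held 1445 cells in UI and 52 in LP4, and F held 359 and 1346. Whether B and F held the same kinds of cells in both libraries was not tested, which limits the ratios of every member within them. *Irak3* followed a like order in UI, at 109 CPM in B (101 to 118) and 42.5 in E (37.2 to 48.3), and in LP4 it was highest in F, at 118 (112 to 124), and lowest in E, at 59.9 (55.3 to 64.8).

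The other members were less uniform. *Irak1* was higher in LP4 in 7 of 8 clusters, 6 with intervals above 0, and the exception was B, at -0.54 (-1.57 to 0.33). *Irak4* was lower in 7 of 8, 5 with intervals below 0, and in H it was at 0.33 (-0.81 to 1.57). *Traf3* was lower in 8 of 8, 6 with intervals below 0, and *Ticam1* in 8 of 8, 4 with intervals below 0. *Irak3* was above 0 in 6 of 8 and *Traf6* in 7 of 8, where 2 intervals excluded 0. Counts of *Ticam2* were too few for an order, with none in cluster B of LP4. These clusters share their 3 libraries, so they are not separate repeats of the treatment.

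**Figure D5:**
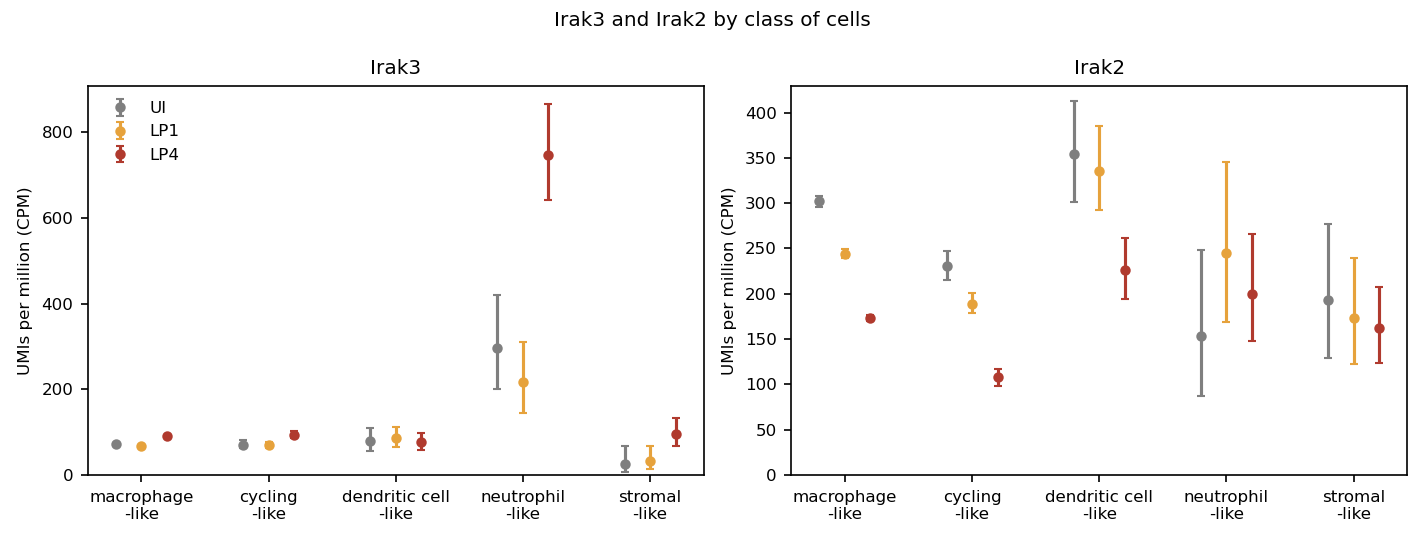
Level of *Irak3* (left) and *Irak2* (right) by class of cells in UI, LP1 and LP4, in CPM, with points for the summed UMIs of a class in 1 library and whiskers for 95% counting intervals. *Irak3* in neutrophil-like cells stands above every other class, at 747 CPM in LP4.

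Between classes of cells, *Irak3* stood apart in the neutrophil-like cells. In the neutrophil-like cluster, which was led by *Mpo*, *Elane* and *S100a9* among others and held 32, 24 and 28 cells, *Irak3* was at 296 CPM in UI (201 to 421), 216 in LP1 (144 to 309.6) and 747 in LP4 (641 to 865). That was 4.13 times (2.80 to 5.88), 3.17 times (2.12 to 4.56) and 8.28 times (7.09 to 9.61) the level in macrophage-like cells of the same library. Its log2 ratio of LP4 over UI was 1.33 (0.78 to 1.93) in neutrophil-like cells and 0.33 (0.26 to 0.40) in macrophage-like cells. In stromal-like cells it was 1.86 (0.39 to 3.81), on 4 UMIs in UI and 37 in LP4. The level, and not the ratio, thus set the neutrophil-like cells apart. Of the 10 neutrophil markers only 4 were at 5 CPM or more in all 3 libraries. *Retnlg*, another of the 10, was at 0.841, 0.553 and 0.0326 CPM in UI, LP1 and LP4. Whether the neutrophil-like cluster held the same mix of cells in each library was not tested. The 179 *Irak3* UMIs of neutrophil-like cells in LP4 were a small part of the 5707 in that library. *Irak2* did not show this, at 153, 245 and 200.3 CPM in neutrophil-like cells with intervals that overlapped. *Tirap* in neutrophil-like cells was 1.66 times (0.200 to 6.04), 4.64 times (1.85 to 9.62) and 2.06 times (1.09 to 3.53) the macrophage-like level in UI, LP1 and LP4. That rested on 2, 7 and 13 UMIs. *Myd88* in the neutrophil-like cells rested on 1, 2 and 9 UMIs.

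Over the 24 points of 8 clusters in 3 libraries, the genes whose log2 level ran most like that of *Myd88*, among 6093 searched, were *Sod2* (Pearson r of 0.972), *Socs1* (0.969), *Azi2* (0.968), *Tmbim6* (0.967) and *Vasp* (0.966). *Sod2*, the mitochondrial superoxide dismutase, was at 104, 221 and 847 CPM in UI, LP1 and LP4, and *Socs1*, an inhibitor of cytokine signaling, at 1.68, 3.85 and 90.7. For *Ticam1* they were *Camk1d* (0.861), *Pim3* (0.842), *Csrnp1* (0.833), *Zeb2* (0.831) and *Mir22hg* (0.829). *Camk1d* was at 455, 519 and 190.1 CPM and *Pim3*, a serine/threonine kinase, at 24.3, 43.4 and 4.59. Both were highest in LP1, as was *Csrnp1*, at 81.8, 133 and 30.9. *Zeb2*, at 3015, 2865 and 2016, and *Mir22hg*, at 127, 125 and 63.5, were highest in UI. *Ticam1* itself was at 11.9 in UI and 13.5 in LP1, with intervals that overlapped. Among the members *Myd88* and *Tirap* were the closest pair, at 0.849. The points share libraries and depth, so these values describe the pattern and carry no test.

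The wider pathway was counted over 54 further genes from receptors to kinase complexes, of which 53 had enough UMIs. At 4 hours 21 of 53 were higher than in UI by at least 1.5-fold, beside 20.3% of all genes, and 12 of 53 were lower, beside 27.7%. At 1 hour 4 of 53 were higher, beside 4.96%, and 0 lower, beside 6.34%. Among 6 receptors and co-receptors, 3 were higher at 4 hours and 0 lower. *Cd14*, which hands lipoproteins to TLR2, went from 291 CPM in UI to 597 in LP1 and 1399 in LP4. Its LP4 over UI log2 ratio was 2.26 (2.24 to 2.29), and *Tlr1* was at -0.58 (-0.80 to -0.35).

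The counts by group are read beside the same shares of all genes at 4 hours, 20.3% higher and 27.7% lower, and with so few genes each they set no group apart. Among 9 brakes with enough UMIs, 5 were higher and 2 lower at 4 hours, from *Socs1* at 5.75 (5.39 to 6.15) to *Sigirr*, an inhibitory receptor, at -1.10 (-1.74 to -0.48). Of 12 ubiquitin enzymes 5 were higher and 3 lower, and the extremes belonged to 1 family of IRAK ligases: *Peli1* was at 2.25 (2.19 to 2.31) and *Peli2* at -1.12 (-1.22 to -1.02). Of 10 genes in and around the TAK1 and IKK complexes 5 were higher and 2 lower. They ran from *Map3k8*, the kinase TPL2 and not a subunit of either complex, at 1.68 (1.58 to 1.78) to *Tab1*, a TAK1 subunit, at -1.25 (-1.48 to -1.01). Of 11 genes of the TRIF branch 3 were higher and 4 lower, from *Azi2*, which binds TBK1, at 1.72 (1.63 to 1.80) to *Irf3*, its interferon-inducing target, at -1.09 (-1.29 to -0.90). Of 5 factors linked to MyD88 0 were higher and 1 was lower, with *Irf7* at 0.40 (0.34 to 0.46) and *Dok3* at -0.67 (-0.80 to -0.53).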

How the data were processed

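Per the file headers and the submitters' processing notes, the deposited matrices hold UMI counts per gene and cell that the authors made with Cell Ranger 7.1.0 on mm10, while the methods text names another version; whether intronic reads were counted is not given in the sources used here. Counts were not normalized. Cells with over 500 UMIs, over 500 genes and under 5% mitochondrial UMIs were kept, which left 15806 of 16281 barcodes, more than the study states it analysed. UMIs were summed per library and given as CPM (per 1000000 UMIs of the library) with exact Poisson intervals, ratios with exact conditional binomial intervals, the difference between arms with a delta-method interval, and shares of cells with exact binomial intervals after thinning to 2000 UMIs. A gene was called at 1.5-fold among genes with at least 50 UMIs in the pair. No p-value was computed, since there was 1 library a group. Clusters were made with scanpy 1.11.5 and leidenalg 0.10.2 at resolution 0.5 (2000 variable genes, 30 components, 20 neighbours, centred within libraries). A cluster was named from 3 or more markers of a type among its 10 leading genes. Failing that, it was named macrophage-like where at least 3 of the 10 macrophage markers were each detected in 50% or more of its cells. Clusters A to F had 7 to 9 such markers. Doublets were scored with Scrublet and kept, and the 5% highest scores were left out as an alternative. The ratios and their intervals were run on simulated Poisson counts with known changes. Those counts held no spread between cells or cultures, so the run checks the arithmetic only. Intervals came from scipy 1.17.1 under Python 3.11.15, tables from pandas 2.3.3 and TMM factors from edgeR 4.0.16.

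The members, pathway genes, markers and motifs were chosen with earlier results of these data known. Named were all 10 members, the highest and lowest gene of each pathway group by LP4 over UI, and the 5 genes most like *Myd88* and *Ticam1* (log2(CPM + 1), genes with at least 20 CPM in a library). Alternatives tried were other cell limits, TMM and median-of-ratios scaling, other thinning depths and cluster resolutions, no minimum of UMIs, and leaving out single genes, shared barcodes, minor classes or mitochondrial and ribosomal genes. Promoters were read from RefSeq tables and gene positions from GENCODE vM21.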

Additional observations from a re-analysis of the deposited data

How the results depend on the processing

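The log2 ratio of the MyD88 arm at 1 hour was -0.06 with TMM and with median of ratios, -0.03 by the median member and 0.10 without *Irak2*, against -0.13. At 4 hours it was 0.05 with TMM, 0.09 with median of ratios, 0.36 by the median member, -0.22 without *Irak3* and 0.55 without *Irak2*, against -0.12. The TRIF arm was at -0.03 and -0.02 at 1 hour under the 2 scalings and at 0.06 without *Traf3*, and at 4 hours at -0.21 and -0.17 under the scalings, -0.58 by the median member and -0.62 without *Traf3*. The difference between arms at 1 hour was 0.10 by medians, -0.20 without *Traf3* and 0.19 without *Irak2*, and at 4 hours 0.94, 0.50 and 0.93 in that order, and 0.16 without *Irak3*. The sums differ by construction, since 1 gene holds the largest share of the UMIs of each arm.

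With no minimum of UMIs, 3217 genes were higher and 4084 lower of 21467 in LP1 than in UI, 5642 and 7857 of 21744 in LP4 than in UI, and 5564 and 6437 of 21800 in LP4 than in LP1. Members higher at 1 hour numbered 1 of 10 with TMM and 2 with median of ratios, beside 6.43% and 6.55% of all genes. Members lower at 4 hours numbered 1 of 10 with either, beside 20.9% and 19.5% of all genes. *Ticam1* at 4 hours lay at the edge of 1.5-fold and passed it without mitochondrial and ribosomal genes or without shared barcodes. Resolutions of 0.3 and 0.8 kept *Myd88* above 0 and *Irak2* below 0 in all clusters compared. Members with few UMIs, such as *Ticam2*, *Tirap* and *Ticam1*, have the widest counting intervals, and with 1 library a condition no setting speaks to the spread between cultures.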
